A study of Mus musculus with 7 samples.

Results

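Amino acid transporter genes were examined in 7 RNA samples of D3, an established mouse embryonic stem cell line, 5 of them from calreticulin knockout cells and 2 from wild type cells. The members were all probe sets of the array that the platform annotation gives 1 gene symbol beginning with Slc1a, Slc3a, Slc6a, Slc7a, Slc36a, Slc38a or Slc43a and a number, without Slc38a4. There were 123 of them, out of 45101 probe sets on the array, and they represented 62 of 18193 genes named by a single symbol. Of these, 31 genes had 1 probe set and 31 had more, up to 7. The Slc6a family was the largest by genes (21 genes, 36 probe sets), followed by Slc7a (16 genes, 29 probe sets), Slc38a (8 and 25), Slc1a (7 and 21), Slc36a (5 and 5), Slc43a (3 and 5) and Slc3a (2 and 2). Not every member carries amino acids. Slc6a also holds the carriers of monoamines, GABA, betaine, taurine and creatine, and 3 symbols, Slc7a6os, Slc36a1os and Slc6a19os, are loci named for lying opposite a carrier gene.

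The series compared cells without calreticulin, which folds glycoproteins and stores calcium in the endoplasmic reticulum (ER) and is encoded by Calr, with wild type cells of the same line. RNA of several pooled cultures per sample went onto a separate Affymetrix Mouse 430 2.0 array, and the labels count the pools as independent biological replicates. The arrays are called KO1 to KO5 for the knockout libraries and WT1 and WT2 for the wild type libraries. The labels give no other allele or agent, no culture medium and no feeder layer, and whether 1 knockout clone or several were used is not stated, so the p-values rest on the variation among these pools, which may be technical. Values are MAS5 signals on a linear scale, which the authors had scaled to a trimmed mean of 500.0 on every array, so signals are shares of each array's total rather than absolute amounts.

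Amino acids cross the plasma membrane through carriers that differ in substrate and driving ion. Sodium-coupled carriers accumulate amino acids, exchangers then trade these for others such as leucine, and the exchangers of the Slc7a light chain group reach the cell surface only when joined by a disulfide bond to a heavy chain of the Slc3a family. When amino acids are short or the ER is stressed, the transcription factor ATF4 binds composite elements in many amino acid transporter and synthesis genes. Carriers on the lysosome supply the amino acid signal that activates the growth kinase mTORC1, and mouse embryonic stem cells are known for their dependence on threonine and glutamine.

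Calr checked the labels. Its brightest probe set had signals of 858, 1055, 1064, 577 and 1006 in KO1 to KO5, against 12460 and 10840 in WT1 and WT2 (log2 difference -3.68, SE 0.30, limma adjusted p = 0.00595). The call was lost without WT1 (adjusted p = 0.254) or WT2 (adjusted p = 0.129). Its position relative to the deleted part of the gene was not analysed here. Of 12 embryonic stem cell markers, all 12 were measured. KO2 and KO3 both lay below the other 5 libraries for 4 of the 12, against 20.9% of the array. Both lay above for 2 of the 12, against 26.9%, namely Tdgf1 (14287 and 15929) and Fgf4 (6215 and 5809). Pou5f1, a core pluripotency factor, had signals of 4891 and 4687 in KO2 and KO3, 8770 to 11549 in KO1, KO4 and KO5, and 11726 and 10184 in WT1 and WT2. KO2 and KO3 stood apart in other ways too. Their correlations with the other 5 were 0.843 to 0.902 over tested probe sets, while correlations among the other 5 were 0.92 to 0.972. The signal of Lys, a bacterial transcript added to RNA before labelling, was 12785 and 9618 in KO2 and KO3, against 3029 to 3878 elsewhere. On the log2 scale the Actb probe set at the 3' end exceeded that at the 5' end by 0.79 and 0.89 in KO2 and KO3, against 1.46 to 2.08 elsewhere. For Gapdh this ratio was -0.31 and -0.27, against -0.17 to 1.32 elsewhere. It was also lowest there for Dap, another added bacterial transcript, at -0.33 and -0.11, against 0.36 to 1.68. The ratio is therefore not read here as a gauge of the integrity of cell RNA. List medians and the differences of the brightest carriers are therefore also given without KO2 and KO3, and the part of these differences in the carriers' signals was not tested.

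No transporter probe set passed the test between knockout and wild type cells. The clearest pattern lay instead in KO2 and KO3, where most of the bright carriers, among them Slc1a4, Slc7a1, Slc7a5, Slc3a2 and Slc7a3, had their highest signals, while KO1, KO4 and KO5 lay near the wild type libraries. Of the 123 probe sets, 73, of 37 genes, had a mean log2 signal above the 40th percentile of the array and were tested, among 27022 in all. With limma, 0 of the 73 had an adjusted p under 0.05, against 8 of 27022 (0.0296%) over the array. At an unadjusted p under 0.05 there were 3 of 73 (4.11%), all higher in knockout cells, against 8.42% over the array. One of them, of Slc1a3, passed the signal filter only through KO2 and KO3, as did 4 other tested members. Without KO2 and KO3, 0 of the 73 passed the adjusted threshold (0.0185% over the array), and 4 had an unadjusted p under 0.05 (5.48%, against 5.64%). The unadjusted share is about that of the array, and with so few calls over the array 0 of 73 says little.

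The differences, knockout minus wild type on the scale of log2(signal + 20.2), ran from -0.60 to 1.97 over the 73 probe sets. Their median was 0.36, against 0.07 over all tested probe sets, and 60 of 73 (82.2%) were positive, against 55.9% of the array. Without KO2 and KO3 the median was 0.02, against 0.03 over the array, and 39 of 73 (53.4%) were positive, against 53.7%. Relative to the wild type mean, the median of the 73 probe sets was 0.93 in KO2 and 0.92 in KO3 (log2 units). It was -0.01, 0.06 and -0.12 in KO1, KO4 and KO5, and 0.13 and -0.13 in WT1 and WT2.

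KO2 and KO3 both lay above all the other 5 libraries at 49 of the 73 probe sets (67.1%), against 26.9% of the array, and both below at 1 of 73, against 20.9%. Both were at least 2-fold above each of the other 5 at 23 of 73 probe sets (31.5%), against 5.45% of the array. That 2-fold count includes probe sets of Slc1a3 and Slc38a9 that passed the signal filter only through KO2 and KO3. It was not repeated with another filter. Taking the brightest tested probe set of each gene, KO2 and KO3 lay above at 23 of 37 genes. With the signal filter set on the other 5 libraries alone, they lay above at 44 of 69 transporter probe sets (63.8%), against 25.5% of the array. These counts describe 2 libraries that were picked out for standing apart and are no test of the knockout. All 5 knockout libraries lay above both wild type libraries at 5 of 73 probe sets, or 6.85%, against 7.8% of the array, and all 5 below at 2 of 73, against 5.85%.

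**Figure D1:**
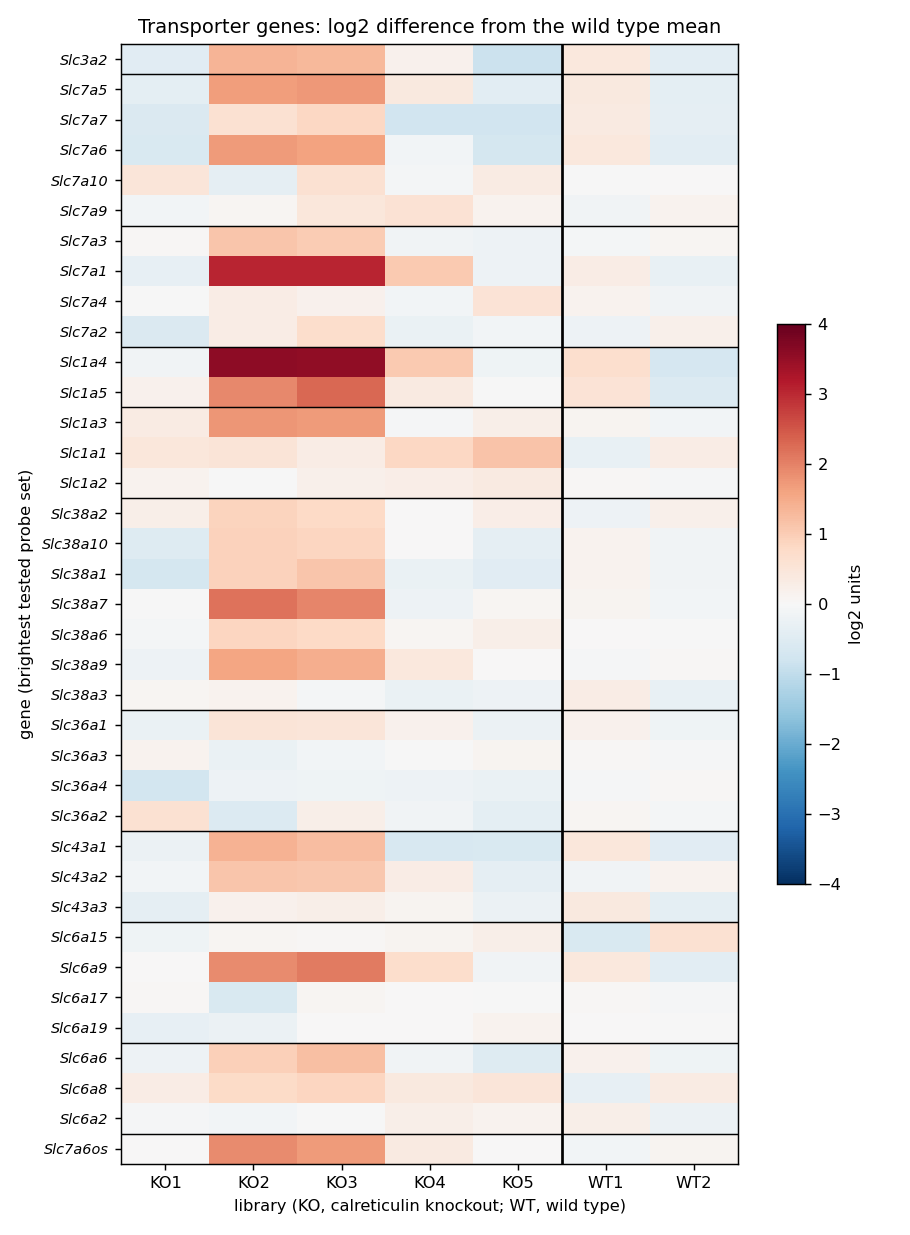
Log2 difference from the wild type mean (colour) of the brightest tested probe set of 37 transporter genes (rows, grouped by role between black lines) in 5 knockout (KO) and 2 wild type (WT) libraries (columns). Red in KO2 and KO3 runs through the rows of Slc3a2, the bright light chains, Slc7a1, Slc7a3, Slc1a4, Slc1a5 and most of Slc38a, and KO1, KO4 and KO5 are pale in most rows.

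Slc3a2, on chromosome 19, encodes the heavy chain known as CD98, the partner of most light chains. It had signals of 4874, 16938, 16306, 7501 and 3677 in KO1 to KO5, against 8880 and 4959 in WT1 and WT2. KO2 and KO3 were the highest of the 7, by at least 1.84-fold, and KO5 was the lowest, so the groups overlapped. The log2 difference was 0.31 (SE 0.59, limma adjusted p = 0.852), and -0.37 (SE 0.35, adjusted p = 0.856) without KO2 and KO3. Slc3a1, the heavy chain of kidney and gut, had signals of 5.6 to 29.5 in knockout libraries and of 9.1 and 5.9 in wild type libraries, and was under the signal filter.

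Among the light chains, Slc7a5, on chromosome 8, encodes the exchanger that brings in leucine and other large neutral amino acids. Its signals were 2868, 12167, 12634, 4990 and 2833 in KO1 to KO5, and 4986 and 2903 in WT1 and WT2. As with its partner Slc3a2, KO2 and KO3 held the 2 highest signals and KO4 and WT1 the next 2. The difference was 0.59 (SE 0.63, limma adjusted p = 0.726), and -0.15 (SE 0.33, adjusted p = 0.944) without KO2 and KO3. Slc7a6, also on chromosome 8, exchanges cationic for neutral amino acids. Its brighter probe set had 751, 3794, 3614, 1083 and 698 in KO1 to KO5, and 1566 and 856 in wild type libraries. Slc7a7, on chromosome 14, has the same substrates. It had 1885, 4358, 4984, 1667 and 1648 in KO1 to KO5, against 3674 and 2177 in wild type libraries. KO1, KO4 and KO5 thus lay below both wild type libraries, with a difference of -0.14 over all libraries (SE 0.50, limma adjusted p = 0.927) and of -0.70 without KO2 and KO3 (SE 0.28, adjusted p = 0.82). Its dimmer probe set differed by 0.42 with all libraries and by -0.63 without these. Slc7a9 and Slc7a10 were dim, at 53.7 to 123.0 in knockout and 62.7 to 79.3 in wild type libraries over both genes. Slc7a8, Slc7a12, Slc7a13 and Slc7a15 were under the signal filter. So was Slc7a11, which imports cystine in exchange for glutamate, and its brighter probe set had signals of 6.2, 62.2, 60, 34.2 and 4.8 in KO1 to KO5, and of 67.8 and 19.1 in wild type libraries.

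The cationic carriers bring in arginine and lysine without a heavy chain. Slc7a1, on chromosome 5, had signals of 634, 6817, 6756, 1680 and 697 in KO1 to KO5, against 1008 and 647 in WT1 and WT2. KO2 and KO3 stood 8.24-fold and 8.17-fold above the wild type mean, and KO4 also lay above both wild type libraries. The log2 difference was 1.31 (SE 0.94, limma adjusted p = 0.622), and 0.16 (SE 0.43, adjusted p = 0.953) without KO2 and KO3. A second bright probe set had the same 2 libraries highest, with 6215 and 6442 in KO2 and KO3 and at most 1640 in any other library. It differed by 0.99 with all libraries and by -0.13 without KO2 and KO3. Slc7a3, on the X chromosome, was among the brightest members in every library. It had 6496, 13576, 12654, 5699 and 5448 in KO1 to KO5, and 5947 and 6539 in wild type libraries. The 2 high libraries were at least 1.94-fold above all others, and the other 3 knockout libraries lay within or just below the narrow wild type range. The difference was 0.37 (SE 0.40, limma adjusted p = 0.726), and -0.09 (SE 0.20, adjusted p = 0.942) without KO2 and KO3. Slc7a2 had 76.3 to 216 in knockout libraries with its brightest probe set, and 106 and 144 in wild type libraries. Slc7a4, a relative with no settled substrate, had 384 to 624 and 458 and 380.

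**Figure D2:**
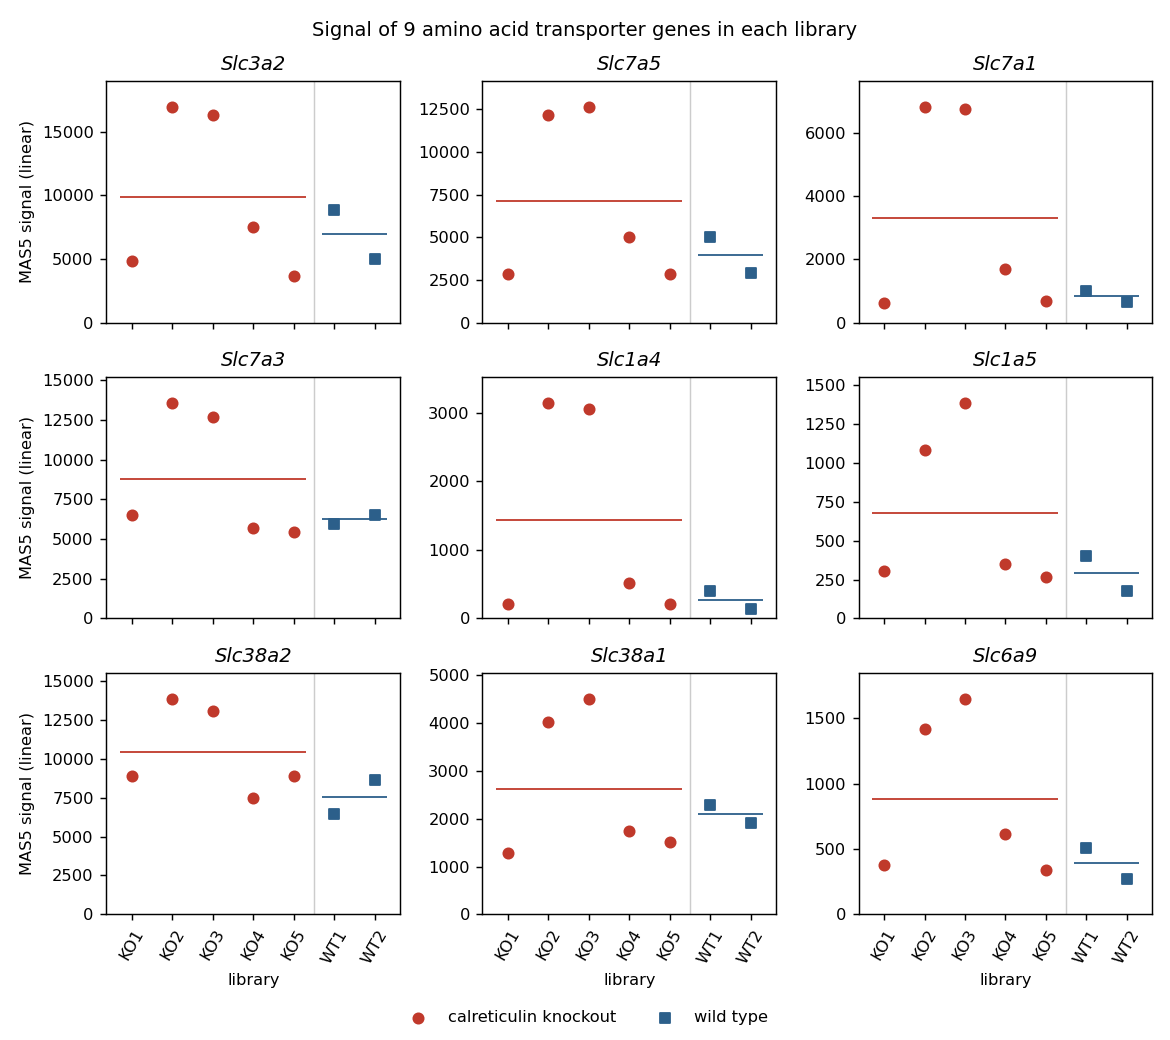
MAS5 signal (linear, from 0) of the brightest probe set of 9 transporter genes in KO1 to KO5 (red circles) and WT1 and WT2 (blue squares), with lines at the group means. In each panel KO2 and KO3 are the highest points, and KO1, KO4 and KO5 lie near the wild type points, as with Slc1a4 at 3141 and 3045 in KO2 and KO3 and at most 519 elsewhere.

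The neutral amino acid exchangers of the Slc1a family held the widest margin of KO2 and KO3 over the other 5 among all members. Slc1a4, on chromosome 11, exchanges serine, alanine and threonine. Its brightest probe set had signals of 218, 3141, 3045, 519 and 214 in KO1 to KO5, against 400 and 144 in WT1 and WT2. KO2 and KO3 were 11.6-fold and 11.2-fold above the wild type mean and at least 5.86-fold above any other library. Its other probe sets, with 2249 and 2433, and with 1510 and 1686, in the same 2 libraries, had the same libraries at the top. The difference was 1.58 (SE 1.08, limma adjusted p = 0.607), and 0.25 (SE 0.49, adjusted p = 0.934) without KO2 and KO3. Slc1a5, on chromosome 7, is a main route for glutamine. It had 307, 1082, 1388, 352 and 267 in KO1 to KO5, and 401 and 179 in wild type libraries. KO1, KO4 and KO5 lay inside the wild type range with this, its brighter probe set. The difference was 0.95 (SE 0.66, limma adjusted p = 0.612), and 0.17 (SE 0.35, adjusted p = 0.935) without the 2 high libraries. Its dimmer probe set had 117.9, 236, 332.5, 47.1 and 63.6 in KO1 to KO5, and 48.1 and 71.9 in wild type libraries. KO1 lay above the wild type range there, and the difference was 0.90 (0.21 without KO2 and KO3).

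Promoter sequences are shown for 3 members because ATF4 is known to act through the element searched for. Of these, Slc1a4 and Slc7a7 differ in how far their signals stood out in KO2 and KO3. Slc7a11 was under the signal filter and did not stand out there. The letters TGATGNAA, where N is any base, were searched on both strands (TTNCATCA on the strand shown) in 300 bases around each RefSeq gene start (build GRCm38.p6). Of the 62 genes, 45 had a promoter entry, and 4 of these 45 (8.89%) held a match, Slc1a4, Slc7a7, Slc7a11 and Slc6a21, against 4.51% of 27025 genes in the table. A match is a description of the letters and no evidence of binding. The sequence of Slc6a21, which was also under the signal filter, is not shown. Capitals mark the matches in the 3 sequences below, which run 5′ to 3′ along the gene's strand from 250 bases before the start.
Slc1a4 (chr11:20332664-20332963, minus strand): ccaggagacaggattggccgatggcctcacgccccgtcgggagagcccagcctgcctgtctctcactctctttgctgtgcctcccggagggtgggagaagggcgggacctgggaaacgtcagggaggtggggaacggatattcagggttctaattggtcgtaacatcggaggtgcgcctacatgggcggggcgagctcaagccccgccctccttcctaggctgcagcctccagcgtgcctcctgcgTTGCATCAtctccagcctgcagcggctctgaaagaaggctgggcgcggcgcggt
Slc7a11 (chr3:50443564-50443863, minus strand): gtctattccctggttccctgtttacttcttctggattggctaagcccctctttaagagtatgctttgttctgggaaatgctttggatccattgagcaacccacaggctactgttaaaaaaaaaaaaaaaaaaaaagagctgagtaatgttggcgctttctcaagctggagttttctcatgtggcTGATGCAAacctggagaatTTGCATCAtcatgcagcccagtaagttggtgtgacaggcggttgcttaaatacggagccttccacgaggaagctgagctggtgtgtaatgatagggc
Slc7a7 (chr14:54417895-54418194, minus strand): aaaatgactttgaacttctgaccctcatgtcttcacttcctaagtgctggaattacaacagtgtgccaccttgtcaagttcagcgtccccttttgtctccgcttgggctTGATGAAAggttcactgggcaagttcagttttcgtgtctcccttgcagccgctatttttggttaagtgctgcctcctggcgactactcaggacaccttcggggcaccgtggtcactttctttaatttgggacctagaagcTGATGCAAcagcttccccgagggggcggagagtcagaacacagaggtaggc
Slc1a4 held 1 match, which begins 4 bases before the annotated start. Slc7a11 held 2, on opposite strands, which begin 66 and 47 bases before it. In the Slc7a7 window 2 matches begin 141 bases and 1 base before the start. In signal, Slc1a4 was at least 5.86-fold higher in KO2 and KO3 than elsewhere, Slc7a7 at least 1.19-fold, and Slc7a11 was too dim to test. Slc3a2 and Slc7a1 had a promoter entry without these letters.

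The glutamate and aspartate carriers held 2 of the 3 probe sets with an unadjusted p under 0.05. Slc1a3, on chromosome 15, encodes a sodium-coupled glutamate carrier that is abundant in astrocytes. Its second-brightest of 6 probe sets had signals of 202, 1082, 1075, 256 and 262 in KO1 to KO5, and 144 and 139 in WT1 and WT2. All 5 knockout libraries lay above both wild type libraries, KO2 and KO3 by the widest margin. The difference was 1.52 (SE 0.66, limma adjusted p = 0.575), and 0.68 (SE 0.26, adjusted p = 0.82) without the 2 high libraries. The fourth-brightest had 38.6, 402, 412, 58.1 and 78.2 in knockout libraries, and 27.9 and 11.3 in wild type libraries. Its groups did not overlap, but it passed the signal filter only through KO2 and KO3, so no test is drawn from it. In another the groups did not overlap (1.25), and the gene's brightest did (0.80, with 255 to 954 in knockout libraries and 284 and 244 in wild type libraries). The dimmest tested one differed by -0.16, so the probe sets of Slc1a3 disagree. The astrocyte marker Gfap had 83.7 to 149 in knockout and 133 and 93.2 in wild type libraries. Of 7 neural markers, 2 were highest in KO2 and KO3 (26.9% over the array) and 1 was lowest there (20.9%). The 2 were Sox1 (350 and 362, against 6.0 to 81.2 elsewhere) and Map2 (169 and 204, against 68.4 to 133). The marker lowest in KO2 and KO3 was Tubb3. It had 504.9, 196.2, 227.5, 505.5 and 409.2 in KO1 to KO5, against 1077 and 648 in WT1 and WT2. Its wild type signals thus exceeded every knockout signal. The Tubb3 difference was -1.24 (limma adjusted p = 0.575), and -0.80 without KO2 and KO3. The summed signal of the 7 was 1922 to 2196 in knockout and 3762 and 2230 in wild type libraries, with Nes at 1842 in WT1. The part of these markers in the Slc1a3 signals was not tested. Slc1a1, on chromosome 19, encodes a neuronal and epithelial glutamate and cysteine carrier, and was not led by KO2 and KO3. It had 221, 231, 195, 295 and 373 in KO1 to KO5, against 126 and 196 in wild type libraries. The groups overlapped only through KO3, with a difference of 0.64 (SE 0.31, limma adjusted p = 0.575), and of 0.81 (SE 0.32, adjusted p = 0.82) without KO2 and KO3. A second tested probe set, nearly as bright, had 193 to 303 in knockout and 157 and 193 in wild type libraries. Its groups overlapped, with a difference of 0.42 (0.52 without KO2 and KO3). Another, dim probe set under the filter had 53.9 to 125 in knockout and 21.4 and 12.1 in wild type libraries. Slc1a2 was near background in both groups with all probe sets (at most 81.7), and Slc1a6 and Slc1a7 were under the filter.

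The sodium-coupled neutral amino acid carriers of Slc38a had 22 tested probe sets of 7 genes. Of these, 20 had a positive difference (median 0.44), against 55.9% of the array. KO2 and KO3 lay above all others at 18, against 26.9% of the array. Both counts include probe sets of Slc38a6 and Slc38a9 that passed the signal filter only through KO2 and KO3. Without these libraries the median was -0.04. Slc38a2, on chromosome 15, encodes the carrier that cells raise when amino acids run short. Its signals of 8882, 13859, 13060, 7498 and 8899 in KO1 to KO5, against 6478 and 8605 in wild type libraries, were among the highest of all members. KO2 and KO3 were above the rest by at least 1.47-fold. The difference was 0.44 (SE 0.29, limma adjusted p = 0.596), and 0.17 (SE 0.21, adjusted p = 0.885) without them. A dimmer probe set gave 0.87 and 0.34. The dimmest had 183, 164, 163, 189 and 186 in KO1 to KO5, against 121 and 130 in wild type libraries. There the groups did not overlap and KO2 and KO3 were the lowest knockout libraries. Its difference was 0.44 (limma adjusted p = 0.575), and 0.50 without KO2 and KO3, so the probe sets of Slc38a2 disagree on these 2 libraries. Its neighbour in function, Slc38a1, also on chromosome 15, had 1285, 4022, 4510, 1735 and 1515 in knockout libraries, and 2296 and 1917 in wild type libraries. In KO1, KO4 and KO5 it was lower than in either wild type library. The difference was 0.12 (SE 0.51, limma adjusted p = 0.939) with all libraries and -0.48 (SE 0.25, adjusted p = 0.82) without KO2 and KO3. A second probe set gave 0.57 and 0.07.

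Slc38a7 and Slc38a9 are carriers of the lysosome, the first for glutamine and asparagine, the second also an arginine sensor for mTORC1. Slc38a7, on chromosome 8, had 482, 2258, 1952, 419 and 519 in KO1 to KO5, and 527 and 449 in wild type libraries. KO2 and KO3 were at least 3.7-fold above all others, and the difference was 0.80, or -0.04 without them. Slc38a9, on chromosome 13, had 7 tested probe sets, all with a positive difference (0.30 to 0.95), of which 2 passed the signal filter only through KO2 and KO3. Without these libraries the 7 differences ran from -0.19 to 0.51. Its fourth-brightest probe set was the remaining one with an unadjusted p under 0.05, at 150, 203, 176, 116 and 123 in KO1 to KO5, against 69 and 103 in wild type libraries. The groups did not overlap with this probe set alone of the 7, with a difference of 0.70 (SE 0.29, limma adjusted p = 0.575), and of 0.51 (SE 0.30, adjusted p = 0.82) without KO2 and KO3. Slc38a10, on chromosome 11, had 2939, 8027, 7709, 4317 and 3273 in KO1 to KO5 with its brightest probe set, and 4650 and 3877 in wild type libraries. The difference was 0.18 (SE 0.42, limma adjusted p = 0.88), and -0.29 (SE 0.24, adjusted p = 0.844) without them. Slc38a6, less well characterised, had 807 and 770 in KO2 and KO3 and 413 to 508 elsewhere. Slc38a3 did not share this order, at 160 to 218 in knockout and 242 and 156 in wild type libraries, and Slc38a5 was under the filter.

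The Slc6a family was divided. Among its amino acid carriers Slc6a9, on chromosome 4, which carries glycine, had 377, 1422, 1651, 618 and 338 in KO1 to KO5, against 507 and 273 in wild type libraries. KO2 and KO3 were at least 2.3-fold above the rest. The difference was 0.91 (SE 0.63, limma adjusted p = 0.609), and 0.19 (SE 0.36, adjusted p = 0.929) without them. A second, dimmer probe set differed by 0.31 with all libraries and by -0.56 without KO2 and KO3. Slc6a15, a carrier of branched-chain amino acids and proline, had 798 to 1052 in knockout libraries, between the wild type signals of 583 and 1369. Slc6a17 and Slc6a19 had 147 to 250 and 135 to 195 in knockout libraries, and 245 and 227, and 178 and 174, in WT1 and WT2. Of the other solute carriers, Slc6a6 for taurine had 2095, 4689, 5597, 2188 and 1692 in KO1 to KO5, and 2728 and 2146 in wild type libraries. Its difference was 0.26 (SE 0.47, limma adjusted p = 0.842), and -0.29 (SE 0.25, adjusted p = 0.849) without KO2 and KO3. Its second tested probe set gave 0.40 and 0.08. The creatine carrier gene Slc6a8, on the X chromosome, had 2190, 3015, 3218, 2295 and 2460 in knockout libraries, against 1393 and 2230 in wild type libraries. The noradrenaline carrier gene Slc6a2 was at 242 to 311 in knockout and at 315 and 219 in wild type libraries. The remaining Slc6a genes, 14 of the 25 members with no tested probe set, include the carriers of dopamine (Slc6a3), serotonin (Slc6a4) and GABA (Slc6a11, Slc6a13). Over the 25 genes no signal exceeded 136 on any array, and their median was 21.3, against 324 over all tested probe sets of the array.

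Slc43a1 and Slc43a2, facilitators for large neutral amino acids, had 712 and 648, and 550 and 539, in KO2 and KO3. Elsewhere among knockout libraries they had 160 to 222 and 184 to 306, against 362 and 187, and 222 and 270, in WT1 and WT2. Slc43a3, a carrier of purine bases, had 85.8 to 139 in knockout libraries, and 158 and 84.0 in wild type libraries. Slc36a1, a proton-coupled carrier of the lysosome, had 474 and 463 in KO2 and KO3, 270 to 375 in KO1, KO4 and KO5, and 370 and 292 in WT1 and WT2. Slc36a2, Slc36a3 and Slc36a4 did not have that order. Slc36a4 was lower in all 5 knockout libraries, at 56.9 to 94.3, than in wild type libraries, at 104 and 114 (difference -0.32, limma adjusted p = 0.66, and -0.40 without KO2 and KO3). The 2 probe sets of Slc7a6os disagreed. The brighter had 1267 and 1116 in KO2 and KO3 and at most 430 in any other library, and the other had 186 to 310 in KO1 to KO5, all below the 312 and 380 of WT1 and WT2 (difference -0.48, limma adjusted p = 0.575, and -0.51 without KO2 and KO3).

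**Figure D3:**
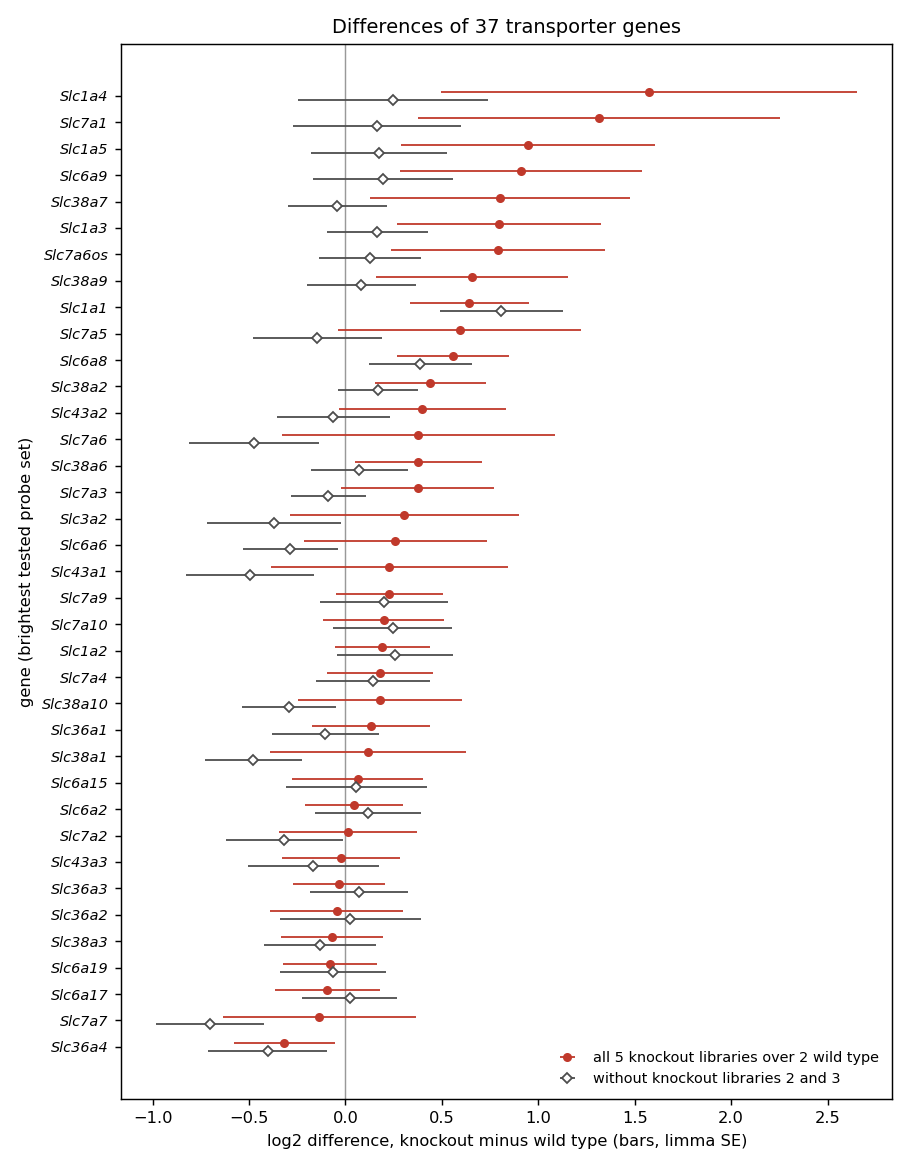
Log2 difference, knockout minus wild type, of the brightest tested probe set of 37 transporter genes, with limma standard errors, for all 5 knockout libraries (red circles) and without KO2 and KO3 (open diamonds). With all libraries Slc1a4 (1.58) and Slc7a1 (1.31) stand highest with wide errors, and without the 2 libraries they are at 0.25 and 0.16.

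Genes that handle amino acids inside the cell were set beside the carriers from textbook lists, each gene by its brightest tested probe set. With limma 0 of their members passed the adjusted threshold in either direction, against 0.0296% over the array. In each list 0 to 3 had an unadjusted p under 0.05, against 8.42% over the array. The most were 3 of 31 genes of lysosomal sensing and mTORC1, 2 of 15 ER chaperones and 2 of 7 carriers of other families. The amino acid response list, mostly ATF4 targets, had 16 of 21 measured genes with a positive difference and a median of 0.44 (0.11 without KO2 and KO3). Relative to the wild type mean its median was 0.89 and 1.0 in KO2 and KO3, 0.54 in KO4, -0.06 and -0.22 in KO1 and KO5, and 0.33 and -0.33 in WT1 and WT2. Its brightest members differed little, Asns, encoding asparagine synthetase, by 0.23, and Eif4ebp1, encoding a repressor of translation initiation, by -0.16 (0.11 and -0.19 without KO2 and KO3). KO2 and KO3 lay above all other libraries at 12 of the list's 21 genes, against 26.9% of the array. The rest had other orders, such as Atf3, Cebpb and Ddit4, highest in WT1, Ddit3 in KO4 and Sesn2 in KO1. Chac1 and Trib3, targets of ATF4 chosen after their values were seen, were highest in KO2 and KO3, followed by WT1 and KO4. Chac1 had 197, 1418, 1299, 780 and 198 in KO1 to KO5, and 945 and 135 in wild type libraries. Trib3 had 244, 1028, 1360, 550 and 293 in KO1 to KO5, and 640 and 262 in WT1 and WT2. Atf4 itself, likewise chosen after its values were seen, had 1778, 5916, 5284, 5014 and 2095 in knockout libraries, and 3302 and 2096 in wild type libraries.

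The enzymes of serine, glycine, proline and one-carbon metabolism had 7 of 13 differences above 0 (median 0.16). Without KO2 and KO3 the sign of the median turned (-0.02, with 5 of 13 above 0). KO2, KO3 and KO4 had medians of 0.58, 0.51 and 0.52 over the wild type mean and WT1 had 0.33, while KO1 and KO5 and WT2 had -0.30, -0.23 and -0.33. The brightest members were Gcsh, of the glycine cleavage system, at -0.42 (-0.14 without KO2 and KO3), and Psat1, of serine synthesis, with 4501, 9431, 8469, 10560 and 4499 in KO1 to KO5, and 10613 and 4930 in wild type libraries. Its highest signals thus lay in WT1 and KO4, and its difference was -0.04 (-0.27 without KO2 and KO3). The list of glutamine, aspartate and branched-chain enzymes had 1 of 13 positive and a median of -0.40 (-0.34 without KO2 and KO3). Its brightest members were Odc1, of polyamine synthesis, at -0.40, and Got2, the mitochondrial aspartate aminotransferase, at -0.35 (-0.25 and -0.51 without KO2 and KO3).

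Genes of glutathione synthesis and the Nrf2 response, which use the cystine that carriers import, had 2 of 13 positive and a median of -0.48 (-0.21 without KO2 and KO3). In KO2 and KO3 their median was -0.96 and -1.08. The brightest were the peroxidase genes Gpx1, at -0.87, and Gpx4, at -0.13 (-0.33 and -0.21 without KO2 and KO3). The list for lysosomal sensing and mTORC1, to which Slc38a9 belongs by function, had 11 of 31 positive and a median of -0.14. Without KO2 and KO3 it had 16 of 31 positive and a median of 0.02, so the sign turned. It did not separate KO2 and KO3 (-0.11 and -0.09) from the rest (-0.11 to 0.14), and its brightest members, the GTPase gene Rheb and the lysosomal scaffold gene Lamtor1, were at 0.21 and -0.72 (0.35 and -0.45 without KO2 and KO3). Amino acid and peptide carriers of other families had 5 of 7 positive, with a median of 0.30 (-0.10 without KO2 and KO3). KO2 and KO3 lay above all others at 5 of 7, against 26.9% of the array. The brightest were the lysosomal carrier gene Slc15a4 at 0.42 (-0.10 without KO2 and KO3) and the peptide carrier gene Slc15a2 at 1.22. Slc15a2 had 581, 1150, 1221, 752 and 560 in KO1 to KO5, against 307 and 366 in wild type libraries, so the groups did not overlap (SE 0.37, limma adjusted p = 0.575), and the difference was 0.86 (adjusted p = 0.82) without KO2 and KO3.

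**Figure D4:**
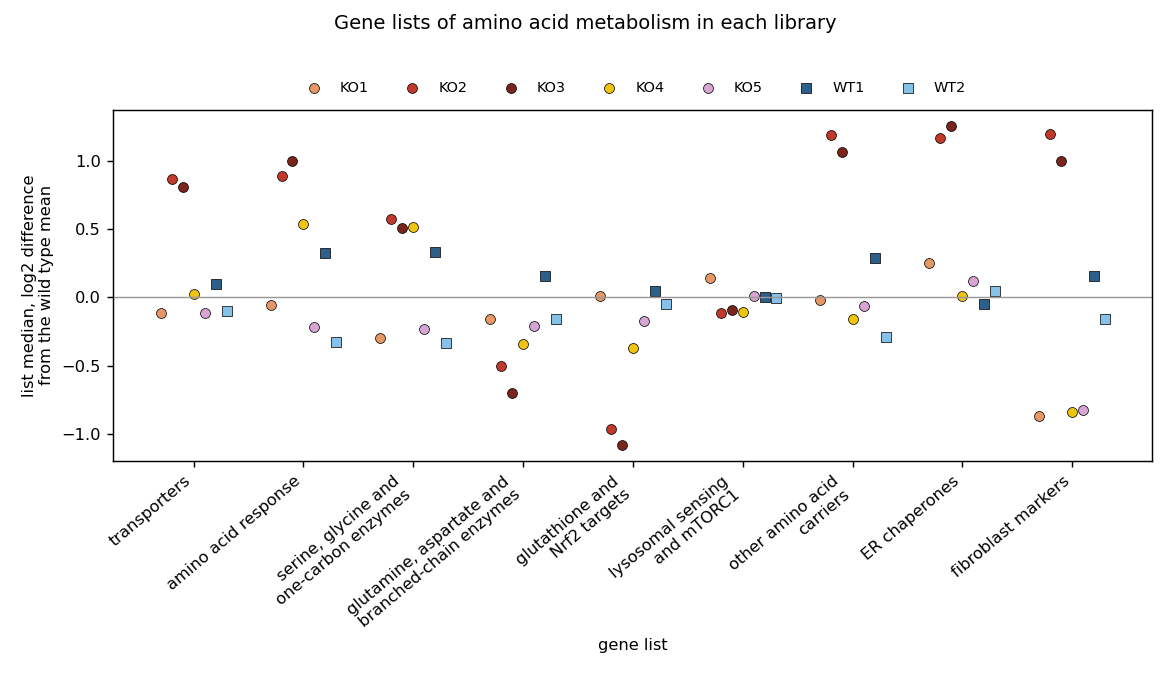
Median over each gene list (x axis) of the log2 difference from the wild type mean (y axis), 1 point per library, with knockout libraries as circles and wild type libraries as squares. KO2 and KO3 are highest for transporters (0.87 and 0.81), amino acid response genes, other carriers, ER chaperones and fibroblast markers, and lowest for glutathione genes and for glutamine, aspartate and branched-chain enzymes.

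ER chaperones and fibroblast markers moved with the same libraries as the carriers. Of 15 ER chaperone genes, 13 were highest in KO2 and KO3, against 26.9% of the array. The list medians were 1.17 and 1.26 there and 0.01 to 0.25 in the other 3 knockout libraries. The brightest, Hspa5 and Canx, differed by 0.37 and 0.18 (0.08 and 0.07 without KO2 and KO3), and the list median was 0.57 (0.12 without them). Of 12 fibroblast markers, which could come from feeder cells, 11 were measured. Of these 11, 8 were highest in KO2 and KO3, against 26.9% of the array. Their summed signal was 7739 and 7286 in these, 1661 to 2934 in KO1, KO4 and KO5, and 5521 and 4742 in WT1 and WT2. None of the 12 stayed under a signal of 20 on all 7 arrays. The list median was -0.01 with 5 of 11 positive, and -0.70 with 0 of 11 positive without KO2 and KO3. Of the brightest, Acta2 was at -1.11 and Col1a2 at 0.47, against -1.51 and -0.67 without KO2 and KO3. Col1a2, a collagen gene, had signals of 1519 and 1443 in KO2 and KO3, 159 to 237 in KO1, KO4 and KO5, and 375 and 250 in WT1 and WT2. In pooled cells, more cells of a type and more RNA per cell cannot be told apart. The part of these markers in the carriers' signals was not tested.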

How the data were processed

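The series holds 7 arrays, 5 of calreticulin knockout and 2 of wild type cells, grouped and numbered by their titles. The deposited values are intensities, 1 linear MAS5 signal per probe set and array, per the submitters' processing notes, with no version given in the sources used here. Detection calls were not used here, so dim signals have no call of presence. Per array the median signal was 92.6 to 124.9, and no further normalization was applied. The number of arrays limits the precision.

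Tests used log2(signal + 20.2), the pseudocount being the 20th percentile over the table. This scale understates differences of dim probe sets. After 64 control probe sets were set aside, the 27022 probe sets with a mean above the 40th percentile were fitted together in limma 3.58.1 (R 4.3.3, moderated statistics with a mean-variance trend, two-sided, Benjamini-Hochberg over all of them, threshold 0.05, no covariates). The fit was tested on simulated data with independent noise, whereas KO2 and KO3 lay close together in the real data. It called 2% of probe sets changed by log2 1, 54% of those changed by log2 2 and 90% of those changed by log2 4. A change of log2 1 would thus mostly go uncalled. Gene names come from the platform annotation, and all 62 genes matched RefSeq (GRCm38.p6), which gave chromosomes and promoters. Probe sets with names ending in x_at or s_at, among them the brightest of Slc1a3 and Slc38a1, may bind related transcripts. A gene was represented by its brightest tested probe set, by mean signal, where a single value is given. All values of every library are given for member probe sets with an unadjusted p under 0.05, the 8 brightest and 10 carriers of textbook importance, and for some further members chosen after their values were seen. From each further list the 2 brightest members are given. The members, lists, tests and alternatives were chosen with earlier results of these data known. Alternatives were other normalizations, filters, pseudocounts of 1 and 64, variance models, array weights, 1 probe set per gene, leaving out libraries, KO2 and KO3 as a batch term, a replicate block and, added after seeing the data, a signal filter that leaves out KO2 and KO3. Replicate numbers are taken as names only, since the labels tie no wild type sample to a knockout sample and the 2 shared numbers cannot show pairing. Figures were drawn with matplotlib 3.10.9.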

Additional observations from a re-analysis of the deposited data

How the results depend on the processing

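Over all 20 alternatives 0 transporter probe sets passed the limma threshold, and the median difference of the tested transporter probe sets stayed positive, from 0.02 without KO2 and KO3 to 0.45 without KO5. The count with an unadjusted p under 0.05, 3 in the main analysis, was 1 with the filter at the 60th percentile, 1 with a pseudocount of 64, 1 with array weights, 0 with 1 probe set per gene, 7 with a batch term for KO2 and KO3, and 0 to 6 when single libraries were left out (1 without KO2, 6 without KO4, 0 without WT1). Over the whole array 8 probe sets passed, against 5 with no filter, 4 with the filter at the 60th percentile, 2 with 1 probe set per gene, 5 without KO2 and KO3, and 0 to 7 without single libraries. It was 4 without KO1, 5 without KO4 or KO5 and 0 without WT1 or WT2, where the lone wild type sample is assumed to vary like the knockout samples. The Calr difference was -3.78 to -3.52 without single libraries, and it no longer passed without WT1 or WT2 (adjusted p = 0.254 and 0.129). With the replicate block the whole array count was 15 and the transporter count at an unadjusted p under 0.05 was 8, and the samples share only a number. The sign of uncalled differences turned for Slc3a2 (-0.14), Slc38a10 (-0.085), Slc6a6 (-0.062) and Slc38a1 (-0.19) with array weights. Without KO2 and KO3, and equally with a batch term for them, the values were -0.37 for Slc3a2, -0.088 for Slc7a3, -0.15 for Slc7a5, -0.29 for Slc38a10, -0.29 for Slc6a6 and -0.48 for Slc38a1. Without single libraries the ranges were -0.11 to 0.724 for Slc3a2, -0.005 to 0.356 for Slc38a10, -0.13 to 0.323 for Slc38a1 and -0.51 to 0.24 for Slc7a7, which was 0.02 with the replicate block. The cause was not tested. Scaling moved the median of all tested probe sets from 0.07 to -0.03 with quantile normalization and to -0.05 with centring on array medians. With these the median over transporters was 0.30 and 0.25. Without KO2 and KO3 the median over all tested probe sets was 0.03, so the 0.02 of the transporters did not exceed it. A filter on the other 5 libraries alone, chosen after seeing the data, gave a transporter median of 0.31, an unadjusted count of 3 of 69 and 8 over the array.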

Other observations

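Below KO2 and KO3, the carriers also gave an order within each group. WT1 lay above WT2 at 52 of 73 tested transporter probe sets (71.2%), against 55.8% of the array, and KO4 lay above KO1 and KO5 at 34 of 73 (46.6%), against 31.6%. Both held at 25 of 73 probe sets (34.2%, against 18.1%). Among them were the brightest of Slc3a2, Slc7a5, Slc7a1, Slc1a4, Slc1a5 and Slc6a9, but not the dimmer probe set of Slc1a5. Psat1 and Phgdh, of serine synthesis, had the same order, and Phgdh had 2789, 5169, 4804, 5879 and 2394 in KO1 to KO5, and 7137 and 2537 in wild type libraries. These genes were named with their values in view, and no test was made.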
